A study of Mus musculus with 40 samples.

Results

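The comparison was between male C57BL/6 mice gavaged with the dioxin TCDD at 10 μg/kg and mice given 3 μg/kg. It used 10 of the 40 liver RNA-seq libraries of the series, 5 at each dose, chosen by the dose label alone, and no vehicle library entered the contrast. All mice received sesame oil by oral gavage at 4-day intervals for 28 days, 7 administrations in all, from day 30 of age, and livers were taken at day 58. The other groups were vehicle and TCDD at 0.03, 0.1, 0.3, 1 and 30 μg/kg, with 5 mice each. Each library came from the frozen liver of 1 mouse, so that hepatocytes, macrophages, stellate, endothelial and bile duct cells were measured together. More cells of a type and more RNA per cell cannot be told apart in such samples.

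TCDD is a persistent ligand of the aryl hydrocarbon receptor (AhR). The ligand-bound receptor moves to the nucleus, pairs with ARNT and binds dioxin response elements, whose core reads GCGTG, near its target genes. In mouse liver, AhR activation induces cytochromes P450 of the CYP1 family first, and sustained activation is known for fat accumulation, immune cell infiltration, loss of the differences between male and female liver, and fibrosis. The question put to the data was which genes moved as the dose was raised from 3 to 10 μg/kg.

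The 10 libraries held 15644518 to 19819464 counts in genes. Of reads in the 3 μg/kg libraries, 6.78% ± 2.60 (SD, n = 5) did not map, against 3.66% ± 0.40 at 10 μg/kg, with no overlap (exact permutation p = 0.00794, two-sided, the smallest that 5 against 5 allows, and 0.0714 after Benjamini-Hochberg adjustment over 9 library measures). TCDD 10 replicate 2 contained kidney transcripts. Of 15 kidney tubule genes, chosen after the libraries were seen, all 15 were at their highest of the 40 libraries there. They summed to 439 CPM (a gene's counts relative to all counts of its library, scaled to 1000000) in that library and to between 0.739 and 7.63 CPM in each of the others, with Umod (uromodulin) at 65.7 CPM, Kap at 83.4 CPM and Slc12a1 at 33.1 CPM. Of the 15, Egf, Lrp2 and Napsa passed the filter on low counts, and all 3 were called higher at 10 μg/kg. Without that library none of them was, and the log2 fold changes of Egf and Lrp2 went from 2.11 and 3.09 to -0.29 and -0.3 (adjusted p = 0.786 and 0.853). TCDD 3 replicate 2 had the largest unmapped share of the series, 11.3%, and the highest neutrophil and acute phase transcripts of the 10 libraries. The 8 neutrophil genes summed to 32.2 CPM in it and to between 3.33 and 6.28 CPM in the other 3 μg/kg libraries, and its Saa1, an acute phase protein, was at 878 CPM against 59.9 to 91.1 CPM. TCDD 3 replicate 5 and TCDD 10 replicate 5 also stood apart, by low values. They had 74 and 64 tested genes more than 2 below all 4 mates on the log2 CPM scale, against 3 to 10 in the other 8 libraries.

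**Figure D1:**
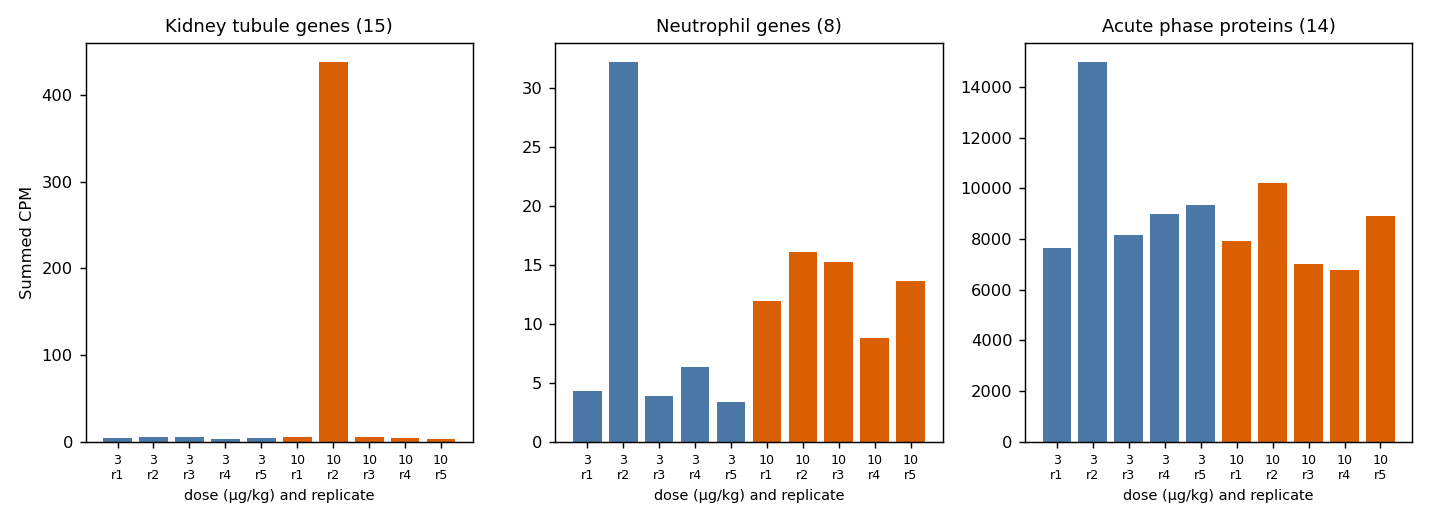
Summed CPM of 15 kidney tubule genes, 8 neutrophil genes and 14 acute phase genes in each of the 10 libraries, with blue bars for 3 μg/kg and orange bars for 10 μg/kg. TCDD 10 replicate 2 holds 439 CPM of kidney transcripts, and TCDD 3 replicate 2 holds 32.2 CPM of neutrophil transcripts and 15000 CPM of acute phase transcripts, more than any other library shown.

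Of 15373 genes tested, 1041 (6.77%) were called between 3 and 10 μg/kg at an adjusted p under 0.05 and a fold change of at least 1.5. Adjusted p-values are those of edgeR's quasi-likelihood test with the Benjamini-Hochberg correction over all tested genes, here and below. The calls comprised 681 rises (4.43% of genes tested) and 360 falls (2.34%). The median called rise was 2.37-fold and the median called fall 2.01-fold, while over all tested genes the median change on the log2 scale was 0.01. At least 4-fold changes were seen for 166 rises and 55 falls. In 477 of the called rises all 5 mice at 10 μg/kg were above all 5 at 3 μg/kg, an arrangement found in that direction for 4.83% of all tested genes, and 209 of the called falls showed the opposite one, found for 3.32%. When libraries were scaled by total counts alone, the median of all genes shifted to 0.15 and the calls divided into 1061 rises and 239 falls, 81.6% upward against 65.4% upward with TMM scaling.

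Without TCDD 10 replicate 2, 926 genes were called, 853 of them also called with it in the same direction, and without TCDD 3 replicate 2, 968 were called with 838 in common. Leaving out both gave 835 calls, 743 in common. There were 1007 calls without TCDD 3 replicate 5 and 1084 without TCDD 10 replicate 5. TCDD 10 replicate 3 weighed most, since 682 genes were called without it, 665 of them in common. The library titles run in 2 numbered series, and the labels do not say whether these were separate batches. Within the first (3 libraries at 3 μg/kg, 2 at 10 μg/kg) 162 genes were called and within the second (2 and 3 libraries) 354, of which 152 and 306 were in common with the 1041. P-values of the main fit rest on the spread between mice of the same dose, estimated from all 40 libraries.

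The 10 largest rises with no overlap between mice were led by Trpv4, Ecel1, Gpnmb, Mmp12 and Col9a2. Trpv4, a calcium-permeable cation channel, was at 0.544, 0.776, 0.942, 0.408 and 1.73 CPM in the 3 μg/kg mice and at 22.5, 17.1, 43.5, 38.1 and 23.1 CPM in the 10 μg/kg mice. The lowest 10 μg/kg mouse was far above the highest 3 μg/kg mouse, and the rise was 32.8-fold (log2 fold change 5.04 ± 0.37 SE, adjusted p = 3.97e-12). The 3 μg/kg level, 0.880 ± 0.517 CPM (SD, n = 5), was close to the vehicle level of 0.687 ± 0.343 CPM. Gpnmb, a transmembrane glycoprotein of lipid-laden macrophages, was at 0.968, 0.895, 0.690, 0.582 and 1.92 CPM at 3 μg/kg and at 18.9, 18.0, 35.6, 28.7 and 25.1 CPM at 10 μg/kg. The groups were separated again, by 25.0-fold (log2 fold change 4.64 ± 0.49 SE, adjusted p = 7.58e-08). Col9a2, a chain of a cartilage collagen, was at 2.12, 1.97, 3.70, 5.42 and 8.26 CPM and then at 81.0, 67.5, 90.9, 74.0 and 106 CPM, a 19.6-fold rise (adjusted p = 1.60e-11). Unlike Trpv4, it had already been called higher from 1 to 3 μg/kg.

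Ecel1, an endothelin-converting enzyme-like protease, did not exceed 0.358 CPM at 3 μg/kg and ranged from 3.60 to 6.89 CPM at 10 μg/kg (log2 fold change 4.73 ± 0.67, adjusted p = 6.74e-05). Mmp12 and Mmp13, a macrophage elastase and a collagenase, rose 24.8-fold and 11.0-fold. Mmp12 spanned 0.128 to 0.665 CPM and then 5.23 to 20.7 CPM, and Mmp13 spanned 0.377 to 1.07 CPM and then 3.36 to 10.6 CPM. Mybl1, a MYB-family transcription factor, reached 43.7 CPM in replicate 3 and 2.44 to 12.5 CPM in the other 10 μg/kg mice against 0.349 to 1.07 CPM at 3 μg/kg. Cyp26b1, which degrades retinoic acid, was also uneven, at 38.5, 8.40, 4.07, 15.7 and 2.17 CPM against 0.726 to 2.07 CPM (log2 fold change 3.47 ± 0.83, adjusted p = 0.00526). Rtn4rl2, a Nogo receptor relative, rose 12.7-fold. Napsa, an aspartic protease of kidney and lung and the remaining gene among the 10, was at 47.0 CPM in replicate 2, the library with kidney transcripts, and at 1.28 to 1.77 CPM in the other 4, and without that library it was not called (log2 fold change 0.98, adjusted p = 0.211).

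**Figure D2:**
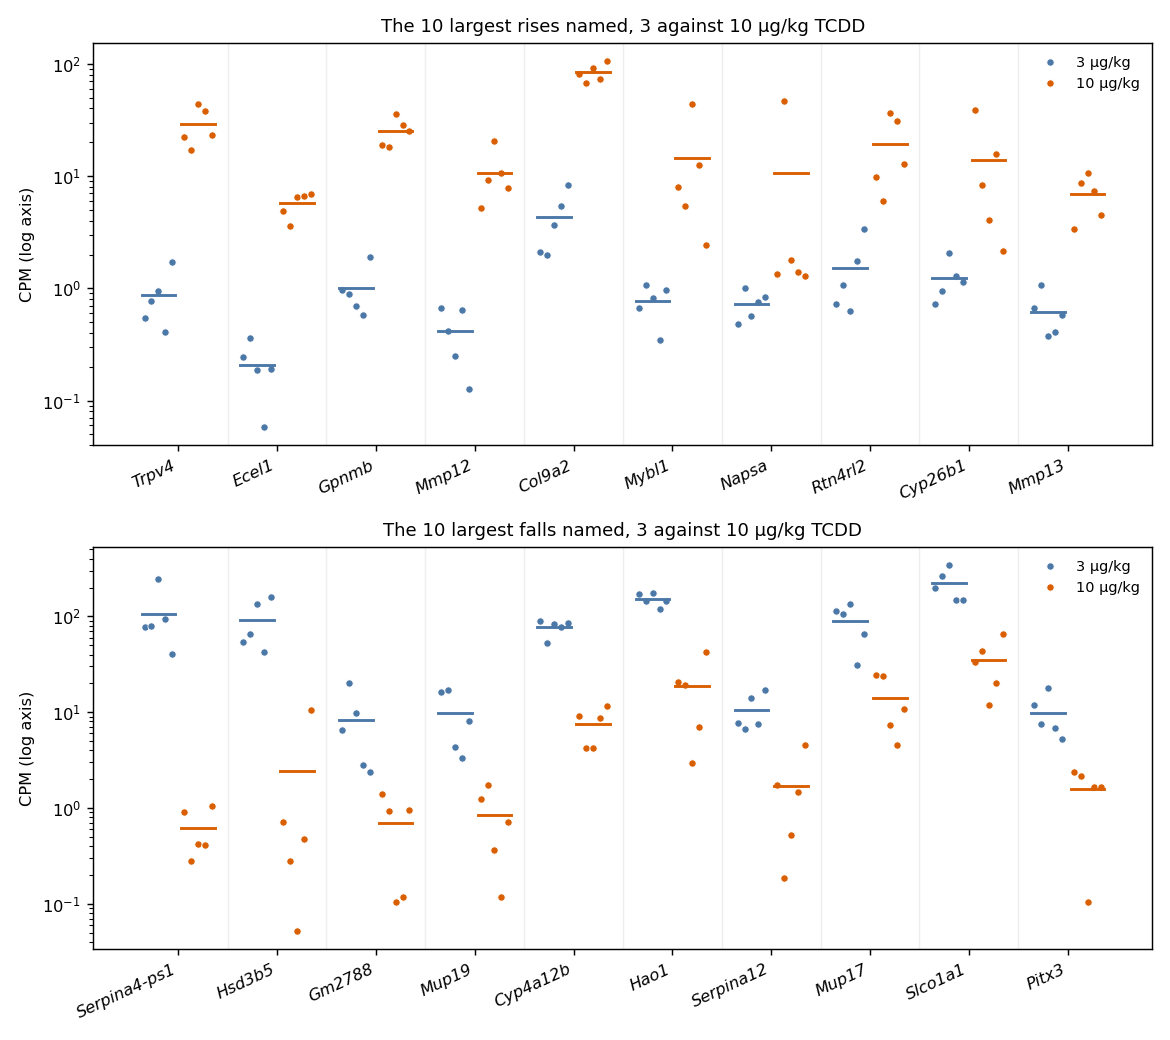
CPM on a log axis of the 10 largest rises (upper panel) and 10 largest falls (lower panel) in each of 5 mice at 3 μg/kg (blue) and 5 at 10 μg/kg (orange), with group means as lines. Trpv4 moves from at most 1.73 CPM to at least 17.1 CPM, Serpina4-ps1 from at least 40.8 CPM to at most 1.06 CPM, and the Napsa mean is carried by 1 mouse at 47.0 CPM.

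Among AhR target genes, Cyp1a1 and Cyp1a2 were level across the step whereas Cyp1b1, Tiparp, Ahrr and Nqo1 rose. Cyp1a1, the classic dioxin-induced P450, was at 6940, 5290, 6370, 7360 and 8110 CPM at 3 μg/kg and at 7100, 6210, 5630, 6670 and 7420 CPM at 10 μg/kg. The groups overlapped throughout (log2 fold change -0.04 ± 0.17, adjusted p = 0.924), both far above the vehicle mean of 1.66 ± 0.48 CPM (SD, n = 5). Cyp1a2, a hepatic P450 that also binds TCDD, was at 19400 ± 3520 and 21900 ± 3590 CPM (log2 fold change 0.18 ± 0.13, adjusted p = 0.490) against 1030 ± 140 CPM in vehicle.

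In contrast, Cyp1b1, the third member of the family, was at 195, 228, 269, 238 and 201 CPM and then at 650, 622, 964, 632 and 442 CPM. It rose 2.93-fold (log2 fold change 1.55 ± 0.22, adjusted p = 6.81e-06) and was at 0.308 ± 0.268 CPM in vehicle. Tiparp, a mono-ADP-ribosyltransferase that represses AhR, was at 19.9, 42.0, 21.3, 21.8 and 15.9 CPM and then at 73.3, 87.6, 149, 51.0 and 62.3 CPM, a 3.50-fold rise (adjusted p = 3.07e-06). Its highest 3 μg/kg mouse was replicate 2, and the groups did not overlap. Ahrr, the AhR repressor, was at 20.2 to 47.5 CPM and then at 53.4 to 92.7 CPM, 1.93-fold higher (adjusted p = 0.0146), and its call was lost without TCDD 3 replicate 2 (adjusted p = 0.0522) or TCDD 10 replicate 3. Nqo1, a quinone reductase shared with the NRF2 response, was at 14.7 to 31.3 CPM and then at 31.4 to 56.8 CPM, 1.98-fold higher (adjusted p = 0.00142). These 4 were the calls among 11 tested genes of the AhR battery, beside 4.43% of all genes called higher. The median log2 fold change of the battery was 0.18. Ahr itself, at 47.0 ± 15.7 and 68.4 ± 17.8 CPM, was not called (adjusted p = 0.232). Tiparp and Cyp1b1 were also called from 1 to 3 μg/kg, by 1.52 and 1.15 on the log2 scale, and the difference between those steps and the present one did not pass the test (adjusted p = 0.925 and 0.872).

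**Figure D3:**
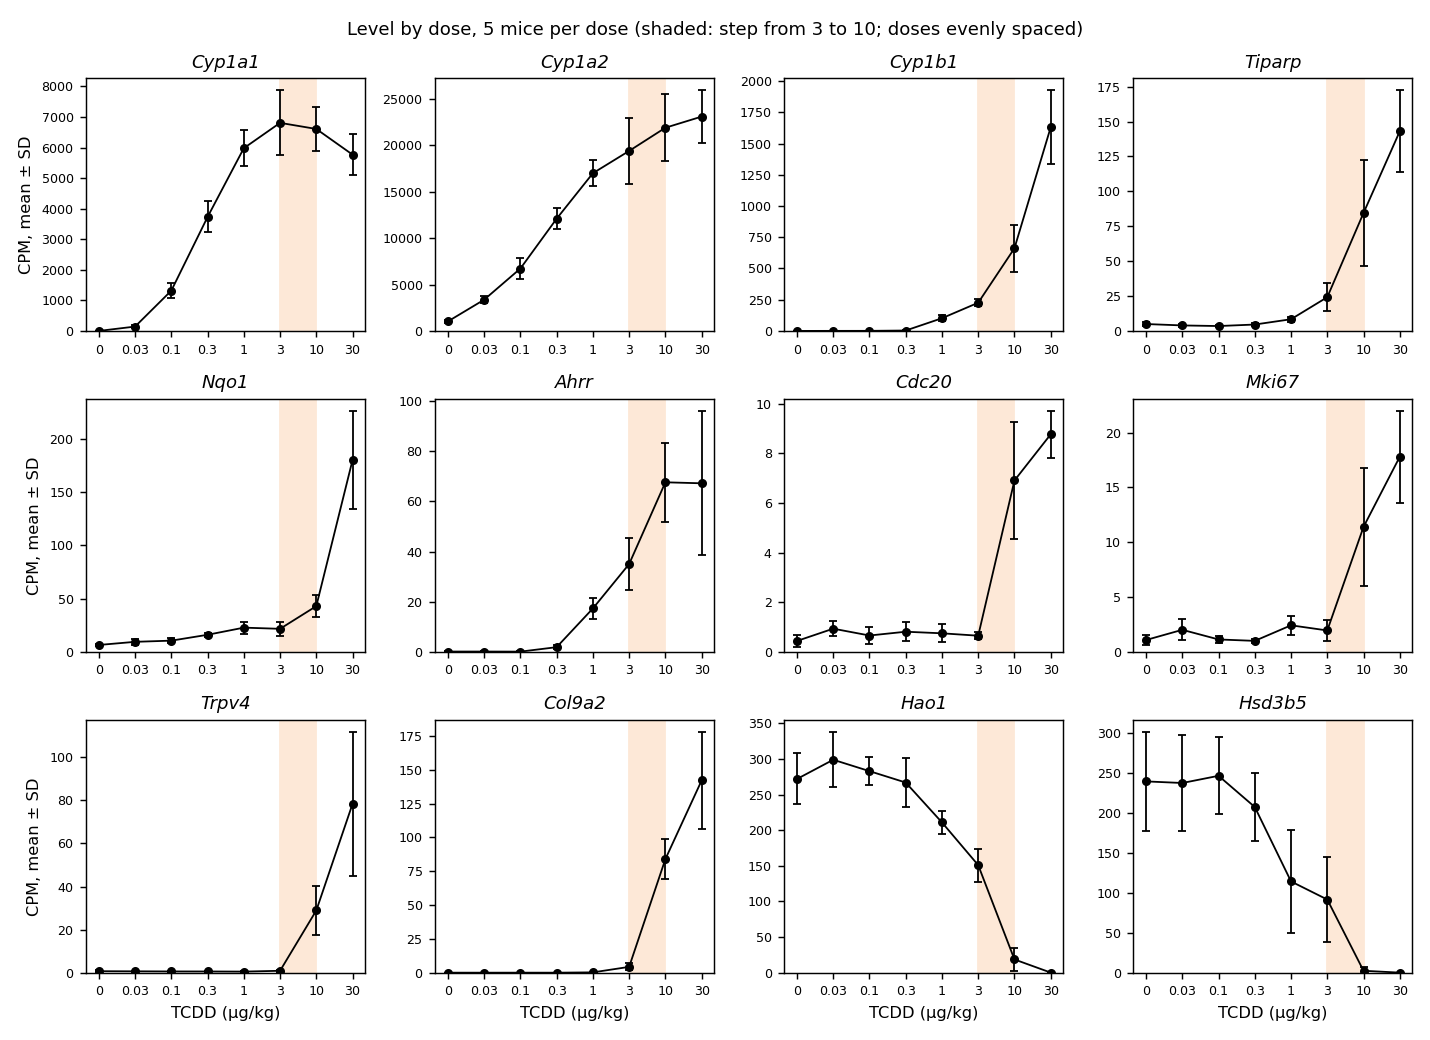
Mean CPM ± SD of 12 genes at vehicle (0) and 7 TCDD doses, 5 mice each, on linear axes that start at 0 with doses spaced evenly, and the step from 3 to 10 μg/kg shaded. Cyp1a1 and Cyp1a2 are level across the shaded step, whereas Cyp1b1 goes from 226 to 662 CPM, Cdc20 from 0.650 to 6.91 CPM and Hao1 from 151 to 18.6 CPM.

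The promoters of Tiparp and Cyp1b1 are shown because the core of the dioxin response element can be read in them. RefSeq windows of 300 bases on GRCm38.p6, from 250 before to 50 after the transcription start, were used, and GCGTG was searched on both strands, so that CACGC in capitals is the same core read on the other strand. They are given 5′ to 3′ on the strand of the gene, Tiparp at chr3:65528197-65528496, plus strand, and Cyp1b1 at chr17:79715012-79715311, minus strand.
Tiparp: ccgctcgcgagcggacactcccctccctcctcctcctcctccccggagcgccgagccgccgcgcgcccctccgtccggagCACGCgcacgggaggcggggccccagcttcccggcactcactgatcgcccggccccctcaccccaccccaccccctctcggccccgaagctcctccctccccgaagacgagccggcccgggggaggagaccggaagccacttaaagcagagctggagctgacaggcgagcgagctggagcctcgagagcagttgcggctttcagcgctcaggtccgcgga
Cyp1b1: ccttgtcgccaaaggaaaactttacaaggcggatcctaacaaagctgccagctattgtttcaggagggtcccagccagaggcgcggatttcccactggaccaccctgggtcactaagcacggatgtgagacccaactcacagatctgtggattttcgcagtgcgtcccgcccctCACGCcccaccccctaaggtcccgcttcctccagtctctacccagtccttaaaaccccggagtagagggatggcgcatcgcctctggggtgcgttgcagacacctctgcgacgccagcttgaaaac
Each of these held the core once, whereas the window of Nqo1, a further called target, held none. A window was matched by symbol for 11101 tested genes, of which 53.2% had the core in at least 1 window. The share was 50.3% of the 505 matched called rises and 35.9% of the 248 matched called falls, and 6 of 9 matched genes of the AhR battery. No test was made on these shares.

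Genes of the cell cycle rose together. All 20 tested members of the cell cycle and DNA replication list had a positive log2 fold change, with a median of 1.94 against 0.01 for all genes, and 15 were called higher against a background of 4.43%. In 16 of the 20 all 10 μg/kg mice were above all 3 μg/kg mice, an arrangement found for 4.83% of all tested genes. Ki-67, the proliferation marker encoded by Mki67, was at 2.36, 2.57, 2.76, 1.63 and 0.448 CPM at 3 μg/kg and at 9.93, 12.4, 19.9, 9.66 and 5.33 CPM at 10 μg/kg, a 5.83-fold rise (adjusted p = 2.86e-06). Vehicle mice were at 1.08 ± 0.441 CPM (SD, n = 5). Rrm2, the small subunit of ribonucleotide reductase, was at 2.00, 1.91, 1.13, 3.84 and 1.54 CPM and then at 10.1, 9.37, 13.1, 12.3 and 10.5 CPM, 5.28-fold higher (adjusted p = 8.54e-08). Neither gene overlapped between doses.

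Ccnb1 and Plk1 had the largest rises of the list, from low levels. Ccnb1, the M-phase cyclin, did not exceed 0.524 CPM at 3 μg/kg and was at 3.02, 2.58, 5.47, 2.41 and 2.83 CPM at 10 μg/kg (log2 fold change 3.72 ± 0.62, adjusted p = 8.61e-05). Plk1, polo-like kinase, was at 0.181 to 0.582 CPM and then at 2.03 to 4.30 CPM, 9.38-fold higher. Ccna2, the S- and G2-phase cyclin, was at 0.439 to 1.07 CPM and then at 3.12 to 6.88 CPM, 5.64-fold higher. Replication licensing genes had log2 fold changes of 0.70 for Mcm3, 0.81 for Mcm2, 1.61 for Mcm5 and 1.78 for Mcm6, and Ccnd1, the G1 cyclin, 1.94. The Mcm3 call was lost when any of 3 single libraries was left out. Pcna, Tyms, Aurka, Ccne2 and Bub1 were not called, with log2 fold changes of 0.29, 0.46, 0.52, 0.49 and 1.94. Pcna passed the p threshold (adjusted p = 0.0271) but not the fold.

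The number of cell cycle genes called was 15 of 20 without TCDD 10 replicate 2, 15 without TCDD 3 replicate 2, 14 without both, and 14 to 16 when any 1 of the 10 libraries was left out. Within the 2 numbered series it was 10 and 13. Of 13 p53 targets and growth arrest genes 2 were called higher, beside 4.43% of all genes, with a median of 0.56. Cdkn1a, the inhibitor p21, was at 10.4, 15.5, 26.5, 16.3 and 15.7 CPM and then at 40.3, 43.1, 56.5, 85.6 and 93.3 CPM (log2 fold change 1.92 ± 0.44, adjusted p = 0.00329). Gadd45b, a stress-induced growth arrest gene, rose from 0.690 to 2.43 CPM to between 5.04 and 10.9 CPM (log2 fold change 2.30 ± 0.40, adjusted p = 0.000122). Within the first numbered series neither was called, and within the second 2 of the list were.

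**Figure D4:**
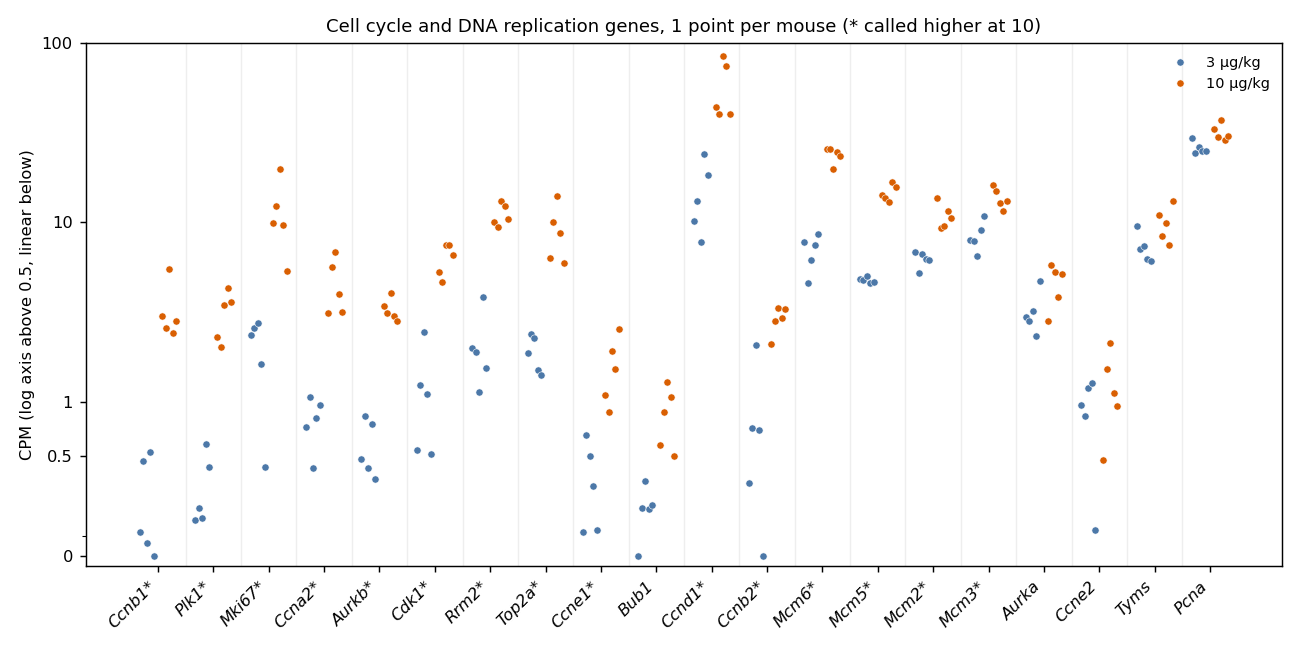
CPM of the 20 cell cycle and DNA replication genes in each mouse at 3 μg/kg (blue) and 10 μg/kg (orange), ordered by fitted fold change, on an axis that is logarithmic above 0.5 CPM and linear below it. Orange points lie above blue points without overlap for 16 genes, and asterisks mark the 15 called higher.

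The windows of 3 mitotic genes are shown next, with CCAAT boxes and the cell cycle homology core TTTGAA in capitals on either strand (ATTGG and TTCAAA on the other), because both elements are textbook features of promoters active in G2 and M phase. Cdc20 lies at chr4:118437294-118437593, minus strand, Ccnb1 at chr13:100786437-100786736, minus strand, and Plk1 at chr7:122159185-122159484, plus strand.
Cdc20: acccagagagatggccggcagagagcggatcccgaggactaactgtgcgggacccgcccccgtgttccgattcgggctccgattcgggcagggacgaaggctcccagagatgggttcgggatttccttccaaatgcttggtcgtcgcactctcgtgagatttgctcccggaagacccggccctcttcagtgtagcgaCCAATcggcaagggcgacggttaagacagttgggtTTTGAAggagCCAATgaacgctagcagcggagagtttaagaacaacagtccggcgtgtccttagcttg
Ccnb1: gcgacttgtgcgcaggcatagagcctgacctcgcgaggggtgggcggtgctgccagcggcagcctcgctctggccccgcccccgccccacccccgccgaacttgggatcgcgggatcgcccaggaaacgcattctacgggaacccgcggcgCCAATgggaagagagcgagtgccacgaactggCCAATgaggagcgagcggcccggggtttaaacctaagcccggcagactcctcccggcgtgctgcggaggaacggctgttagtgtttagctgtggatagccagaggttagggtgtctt
Plk1: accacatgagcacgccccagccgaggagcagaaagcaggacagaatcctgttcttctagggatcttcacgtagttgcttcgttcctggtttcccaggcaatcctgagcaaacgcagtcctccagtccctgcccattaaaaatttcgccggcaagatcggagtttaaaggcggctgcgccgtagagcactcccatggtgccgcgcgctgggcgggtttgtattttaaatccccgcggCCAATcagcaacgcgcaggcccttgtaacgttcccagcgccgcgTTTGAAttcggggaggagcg
The GCGTG core, not marked here, occurred once in each of the 3 windows. Cdc20 and Ccnb1 held CCAAT at 2 positions and Plk1 at 1, and TTTGAA was present once in Cdc20 and Plk1. CCAAT was found for 14 of the 16 matched cell cycle genes and for 42.6% of the 11101 matched tested genes. TTTGAA was found for 7 of the 16 and for 15.0%. Both motifs were picked after the cell cycle values were known, and the shares were not tested.

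Many genes of the extracellular matrix rose. Of 14 tested collagens, 11 were called higher and 1 lower, beside 4.43% and 2.34% of all genes. The collagens had a median log2 fold change of 0.80. Their summed level overlapped between doses, at 1450 to 1660 CPM at 3 μg/kg and 1570 to 1710 CPM at 10 μg/kg. Col1a1, the major chain of fibrillar type I collagen, was at 26.3, 14.5, 19.1, 17.8 and 27.5 CPM at 3 μg/kg and at 71.3, 67.9, 86.6, 56.8 and 85.9 CPM at 10 μg/kg, 3.50-fold higher (adjusted p = 6.76e-05). Vehicle mice were at 10.9 ± 6.71 CPM. Col1a2 was at 21.8 to 33.6 CPM and then at 53.3 to 79.1 CPM, and Col3a1 at 41.1 to 63.3 CPM and then at 94.2 to 135 CPM. Neither overlapped between doses. Col5a2 rose by 1.38 ± 0.31 on the log2 scale, and the type VI chains Col6a1, Col6a2 and Col6a3 by 1.01, 0.99 and 0.83. Col5a3, a minor fibrillar chain, went the other way, from 59.0 to 83.4 CPM down to 26.8 to 42.8 CPM (log2 fold change -0.96 ± 0.26, adjusted p = 0.0152).

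Of 20 matrix remodelling genes, 11 were called higher, beside 4.43% of all genes, with a median of 1.17. None was called lower by edgeR or DESeq2, and 1 gene was lower at an unadjusted p under 0.05. Mmp12 and Mmp13 were among those called higher. The summed level of the list overlapped between doses, at 1360 to 2190 CPM and then at 1420 to 1720 CPM. Plau, urokinase, was at 13.9 CPM in TCDD 10 replicate 2 and at 1.44 to 4.12 CPM in the other 4, and it was not called without that library. Lox and Thbs1, a collagen cross-linker and a matricellular protein, rose by 1.92 and 1.91 on the log2 scale. With TCDD 10 replicate 2 and TCDD 3 replicate 2 both left out, 9 collagens and 7 matrix remodelling genes were called higher. Within the first numbered series 1 collagen and 2 matrix remodelling genes were, and within the second 3 of each.

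Markers of stellate cells, the main collagen producers in liver, were called higher for 4 of 10 genes (Lum, Lrat, Reln and Dcn). The share over all genes was 4.43%, and the list had a median of 0.59. DESeq2 called 4, limma 2 and total-count scaling 5. With single libraries left out 2 to 4 were called, and 3 without both TCDD 10 replicate 2 and TCDD 3 replicate 2. Within the numbered series 0 and 1 were. The summed level of the markers was 354 to 453 CPM at 3 μg/kg and 453 to 690 CPM at 10 μg/kg. Lum, lumican, was at 4.48 to 7.08 CPM and then at 8.28 to 22.3 CPM (adjusted p = 0.000218). Dcn, decorin, was at 105 to 114 CPM and then at 130 to 197 CPM (adjusted p = 0.00398), at the 1.5-fold limit, so that leaving out any of 6 single libraries ended its call. The part that the number of stellate cells had in the collagen result was not tested.

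Macrophage genes of the lipid-associated type rose. Of 14 tested, 8 were called higher, beside 4.43% of all genes, with a median log2 fold change of 1.11. Trem2, a lipid-sensing receptor that defines these cells, was at 0.121, 0.000, 0.314, 0.291 and 0.512 CPM and then at 1.78, 1.25, 3.91, 1.94 and 2.06 CPM (log2 fold change 3.12 ± 0.62, adjusted p = 0.000745). Atp6v0d2, a subunit of the vacuolar proton pump, was at 0.256 to 0.484 CPM and then at 0.816 to 3.13 CPM. Lgals3 and Cd63, galectin-3 and a lysosomal tetraspanin, rose by 1.70 and 1.49 on the log2 scale (adjusted p = 1.73e-05 and 1.54e-05). Without TCDD 10 replicate 2 the list had 6 calls, and Itgax, also of the list, was not among them (adjusted p = 0.0564). Within the numbered series 2 and 5 were called.

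Among 11 markers of resident Kupffer cells, 10 had a positive log2 fold change, with a median of 0.43. Marco and Vsig4, a scavenger receptor and a complement receptor, were called higher, beside 4.43% of all genes. The number called was 0 without TCDD 10 replicate 3 and 4 without TCDD 3 replicate 5, 0 within either numbered series, and 7 were higher at an unadjusted p under 0.05. DESeq2 called 2. No test compared these markers with the lipid-associated list. Their summed level was 296 to 487 CPM and then 437 to 846 CPM. Marco was at 2.76 to 9.20 CPM and then at 10.9 to 28.2 CPM (adjusted p = 0.0108, and not called without TCDD 10 replicate 3), and the Vsig4 call was lost when any of 6 single libraries was left out. A list of 7 itaconate and macrophage genes joined genes that the study followed with Gpnmb, which the paper does not name. Gpnmb was the 1 called. With limma, with total-count scaling, or with title series and order as covariates, 2 of the list were called. Within the numbered series 2 and 1 were. At an unadjusted p under 0.05, 3 of the list were higher and 1 lower. Adgre1, Cd5l and Csf1r, also of that list, had log2 fold changes of 0.47, 0.38 and 0.57. None of these 3 was called (adjusted p = 0.205, 0.317 and 0.0189), the last because its fold was under 1.5. Itgax and Lyz2, of dendritic and myeloid cells, were the 2 calls among 9 monocyte and dendritic cell markers, whose median was 0.96 and whose summed level was 38.4 to 69.7 CPM and then 98.4 to 154 CPM.

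Markers of other cell types gave no calls by edgeR. These were 5 tested neutrophil, 8 T and NK cell, 7 B and plasma cell, 8 sinusoidal endothelial and 7 bile duct markers. At an unadjusted p under 0.05, 0, 0, 1, 5 and 1 of them were higher, and DESeq2 called 1 B and plasma cell marker. Without TCDD 3 replicate 2, 2 neutrophil markers were called higher. Chemokines and their receptors were called higher for 4 of 22, beside 4.43% of all genes, with a median of 0.90. That count was unstable, being 7 with DESeq2 or limma, 8 with total-count scaling, 2 without TCDD 3 replicate 1 or 3, 6 without TCDD 3 replicate 2 or TCDD 10 replicate 4, 7 without both TCDD 3 replicate 2 and TCDD 10 replicate 2, and 0 and 1 within the numbered series. Of the 22, 6 had a negative log2 fold change, down to -1.65. None of these was called, and 3 were lower at an unadjusted p under 0.05. The summed level of the 22 overlapped between doses, at 280 to 585 CPM and then at 303 to 365 CPM. Ccl2, the monocyte attractant, was at 0.423, 3.04, 0.188, 1.75 and 1.22 CPM and then at 2.83, 2.77, 4.59, 3.36 and 10.0 CPM, overlapping (log2 fold change 1.82 ± 0.53, adjusted p = 0.0229). Il1rn and Tgfb1, the interleukin-1 receptor antagonist and a profibrotic cytokine, rose by 1.80 and 0.75 on the log2 scale, whereas Il18, an inflammasome cytokine, fell by 0.65. MHC class II genes had no call by edgeR or DESeq2 among 8, with 1 higher at an unadjusted p under 0.05.

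**Figure D5:**
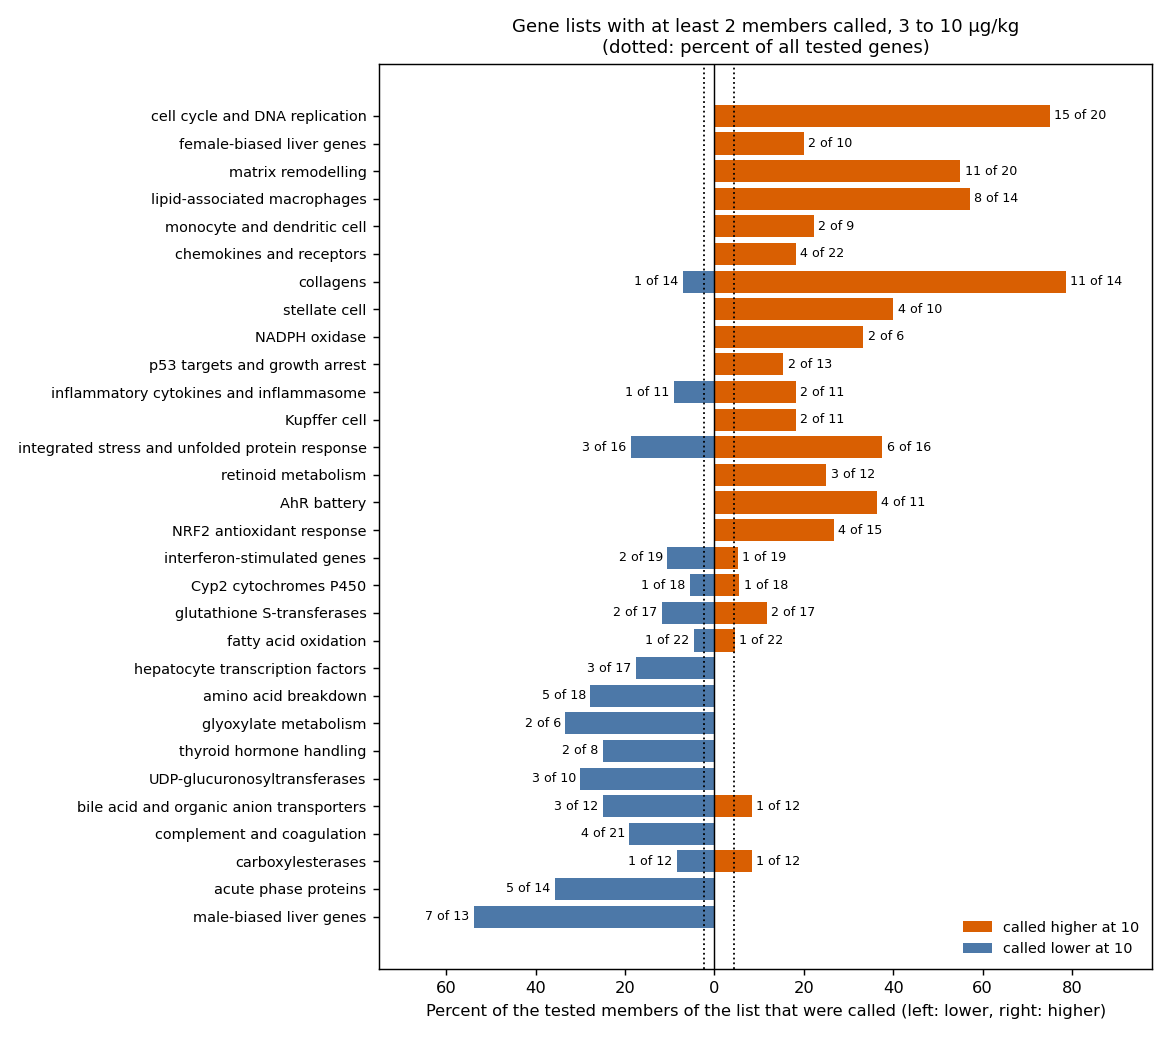
Percent of the tested members of each gene list that were called higher (orange, right) or lower (blue, left) at 10 than at 3 μg/kg, for lists with at least 2 calls, ordered by median log2 fold change, with the number called of the number tested beside each bar. Dotted lines give the percent of all tested genes, 4.43 higher and 2.34 lower. Collagens and cell cycle genes lie farthest right, and male-biased genes farthest left.

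The largest falls with no overlap between mice were Serpina4-ps1, Hsd3b5, Gm2788, Mup19, Cyp4a12b, Hao1, Serpina12, Slco1a1, Mup17 and Pitx3. Serpina4-ps1, a pseudogene of the serpin family, was at 77.8, 79.5, 243, 93.3 and 40.8 CPM at 3 μg/kg and at 0.912, 0.277, 0.417, 0.412 and 1.06 CPM at 10 μg/kg. The fall was 173-fold (log2 fold change -7.43 ± 0.88, adjusted p = 2.59e-07), from a 3 μg/kg mean of 107 ± 78.4 CPM that lay within 1 SD of the vehicle mean of 88.9 ± 59.9 CPM (SD, n = 5). Hao1, the peroxisomal glycolate oxidase that makes glyoxylate, was at 171, 146, 176, 119 and 145 CPM and then at 20.9, 19.3, 2.92, 6.95 and 43.0 CPM, 8.14-fold lower (adjusted p = 2.28e-07). Its vehicle level was 272 ± 35.8 CPM. Pitx3, a homeobox factor, was at 5.25 to 17.7 CPM and then at 0.104 to 2.35 CPM, and Serpina12, the adipokine vaspin, at 6.68 to 17.2 CPM and then at 0.185 to 4.50 CPM. The Mup17 call (adjusted p = 0.0288) was lost when any of 5 single libraries was left out.

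Male-biased liver genes fell as a group. All 13 tested had a negative log2 fold change, with a median of -1.67, and 7 were called lower against a background of 2.34%. Hsd3b5, a male-specific steroid dehydrogenase of mouse liver, was at 54.0, 65.2, 135 and 42.4 CPM in replicates 1 to 4 at 3 μg/kg, with replicate 5 above them, and then at 0.720, 0.277, 0.0521, 0.471 and 10.6 CPM. Every 10 μg/kg mouse was below every 3 μg/kg mouse, replicate 5 standing above its 4 mates (log2 fold change -5.27 ± 0.62, adjusted p = 2.59e-07). Cyp4a12b, a male-predominant fatty acid hydroxylase, was at 90.6, 52.6, 83.9, 77.6 and 85.6 CPM and then at 9.21, 4.24, 4.22, 8.65 and 11.7 CPM (adjusted p = 8.83e-07). Slco1a1, an organic anion uptake transporter, was at 147 to 345 CPM and then at 11.9 to 65.7 CPM, and Elovl3, a fatty acid elongase, at 336 to 761 CPM and then at 15.7 to 117 CPM. Cyp4a12b has a near-identical neighbor, Cyp4a12a (log2 fold change -2.25), and the major urinary protein genes Mup17 and Mup19 have many close copies, so that reads unique to 1 copy are few and these values are uncertain. The count was also 7 without TCDD 10 replicate 2 and without TCDD 3 replicate 2, and it was 5 and 4 within the numbered series.

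Among 10 tested female-biased genes 9 had a positive log2 fold change and 2 were called higher, beside 4.43% of all genes. DESeq2 called 1, and 0 were called within either numbered series. The list had a median of 1.49. Cyp3a44, a female-predominant P450, was at up to 0.291 CPM and then at 0.384 to 3.23 CPM (adjusted p = 0.00623). In the 3 μg/kg libraries 3 counts make 0.175 to 0.192 CPM, so its level there rests on few counts. Ghr, the receptor of growth hormone, whose secretion pattern sets the sex difference, was at 302 to 395 CPM and then at 183 to 298 CPM, the call among 13 genes of its axis (log2 fold change -0.61 ± 0.19, adjusted p = 0.0292). It lost the call when any of 6 single libraries was left out.

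Of the transcription factors that define hepatocytes, Onecut1, Foxa1 and Cebpa fell. Onecut1, or HNF6, was at 6.11, 22.6, 29.1, 22.6 and 1.99 CPM and then at 1.92, 0.831, 3.18, 1.30 and 2.44 CPM, an 8.52-fold fall with overlap (adjusted p = 0.00384). Foxa1 was at 18.7 to 36.2 CPM and then at 11.4 to 16.5 CPM. Cebpa, a regulator of metabolic genes, was at 414, 292, 375, 398 and 449 CPM and then at 246, 238, 206, 237 and 295 CPM, 1.58-fold lower (adjusted p = 0.00400). These were the 3 calls among 17 hepatocyte transcription factors, beside 2.34% of all genes called lower. Hnf4a was at 681 ± 57.7 and 678 ± 80.3 CPM. Of 10 hepatocyte markers none was called by edgeR or DESeq2, with 1 higher at an unadjusted p under 0.05, and Alb, albumin, was at 66900 ± 9730 and 69200 ± 11600 CPM.

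Metabolic genes of hepatocytes were called lower in several lists. Amino acid breakdown had 5 of 18 called lower, beside 2.34% of all genes, with a median of -0.35. Sds, serine dehydratase, was at 35.3, 38.2, 41.6, 45.1 and 49.1 CPM and then at 20.4, 20.3, 10.9, 29.9 and 22.7 CPM (log2 fold change -1.01 ± 0.29, adjusted p = 0.0228), and Kmo, of the kynurenine pathway, fell by 0.74. Without TCDD 10 replicate 2 the list had 2 calls. UDP-glucuronosyltransferases had 3 of 10 (Ugt2b1, Ugt3a1 and Ugt2b5), and Ugt2b5 was at 776 to 1050 CPM and then at 482 to 595 CPM (adjusted p = 3.18e-06). The Ugt3a1 call was lost when any of 8 single libraries was left out. Abcg5, Abcg8 and Abcc3, canalicular sterol transporters and a basolateral efflux pump, fell by 0.79, 0.77 and 0.60, while Slco1a4 rose by 0.96 but was not called without TCDD 10 replicate 2 or TCDD 3 replicate 2. With total-count scaling the transporters had no call lower and amino acid breakdown had 2. Otc, of the urea cycle, and Mlxipl, the carbohydrate-responsive factor ChREBP, fell by 0.75 and 0.70, and the Otc call was lost when any of 7 single libraries was left out, TCDD 10 replicate 2 and TCDD 3 replicate 2 among them.

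Calls among secreted proteins of the acute phase and of clotting depended in part on 1 library. Of 14 acute phase proteins 5 were called lower, and of 21 tested complement and coagulation genes 4 were, beside 2.34% of all genes. Fga, a fibrinogen chain, was at 3160, 8650, 3290, 3490 and 3490 CPM at 3 μg/kg and at 1800, 2580, 1480, 1820 and 2740 CPM at 10 μg/kg, 2.12-fold lower (adjusted p = 0.00400). TCDD 3 replicate 2 was the mouse at 8650 CPM, and without it the log2 fold change went from -1.08 to -0.69 (adjusted p = 0.0480). Hp, haptoglobin, went from -1.19 to -0.94 (adjusted p = 0.0372). Both genes thus still passed the thresholds. The acute phase list had 1 call without that library and the complement and coagulation list 2. With the library kept, limma called 2 and 4 lower. Saa1 and Saa2, not chosen by the naming rule but for that library, were not called, and their log2 fold changes turned from -1.09 and -1.24 to 0.63 and 0.97 without it.

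Of 16 genes of the integrated stress and unfolded protein responses, 6 were called higher and 3 lower, beside 4.43% and 2.34% of all genes. Their median was 0.26. Fgf21, a hormone induced by ATF4, was at 2.84, 6.21, 5.15, 12.1 and 3.07 CPM and then at 30.4, 29.3, 92.8, 50.7 and 47.6 CPM, 8.50-fold higher (adjusted p = 5.69e-05). Psat1, of serine synthesis, was at 1.66 to 5.46 CPM and then at 12.9 to 24.4 CPM (log2 fold change 2.80 ± 0.37, adjusted p = 1.70e-06). Asns, Atf3, Trib3 and Atf5 were called higher as well, by 1.97, 1.77, 1.5 and 0.84. Hspa5, the chaperone BiP, was at 669, 739, 538, 840 and 1050 CPM and then at 491, 475, 490, 447 and 462 CPM (log2 fold change -0.70 ± 0.22, adjusted p = 0.0339), and Sdf2l1 and Xbp1 fell by 1.30 and 0.65. The 3 falls became 1 with total-count scaling, 1 without both TCDD 10 replicate 2 and TCDD 3 replicate 2, 1 to 4 with single libraries left out and 0 within either numbered series, where 1 and 5 rises were called. The Hspa5 call was lost when any of 7 single libraries was left out, and those of Xbp1 and Asns without TCDD 3 replicate 2 (adjusted p = 0.0782 and 0.0572).

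NRF2 targets were called higher for 4 of 15 genes, beside 4.43% of all genes, with a median of 0.14. Hmox1, heme oxygenase, was at 14.1 to 41.9 CPM and then at 40.5 to 107 CPM (adjusted p = 0.00362), Abcc4, an efflux pump, at 4.03 to 7.80 CPM and then at 9.89 to 25.6 CPM, and Gpx2, a glutathione peroxidase, at up to 1.40 CPM and then at 0.969 to 4.12 CPM. Nfe2l2, which encodes NRF2, rose by 0.71 ± 0.19. Among 17 glutathione S-transferases Gstm3 and Gstm2 rose by 1.72 and 0.95, and Gstm6 and Mgst1 fell by 0.81 and 0.64. Gstm3 was at 334, 182, 309, 591 and 393 CPM and then at 1290, 675, 1060, 1690 and 1220 CPM (adjusted p = 8.19e-06), with close copies in its cluster that can share reads. Dlk1, an imprinted gene of fetal liver, was at up to 0.302 CPM and then at 1.35 to 4.12 CPM (adjusted p = 6.76e-05), the call among 8 fetal genes.

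Several pathways had no call in either direction by edgeR or DESeq2. They were cholesterol synthesis and uptake (22 genes, median 0.13), lipid uptake and lipid droplets (17, -0.19), bile acid synthesis (11, -0.23), gluconeogenesis and glycogen (17, -0.23), mitochondrially encoded subunits (13, -0.06), cobalamin uptake and processing (11, -0.01) and propionyl-CoA metabolism (9, -0.17). At an unadjusted p under 0.05, 1 cholesterol and 1 bile acid synthesis gene and 2 gluconeogenesis genes were higher, and 2, 3, 5, 2, 1 and 3 genes of the other lists, from lipid uptake to propionyl-CoA in that order, were lower. Cyp7a1, the rate-limiting enzyme of bile acid synthesis, was at 22.1, 4.12, 21.0, 17.8 and 14.9 CPM and then at 105, 21.7, 48.2, 113 and 20.1 CPM (log2 fold change 1.94 ± 0.80, adjusted p = 0.128), a wide spread at the higher dose. Pcca and Pccb, the subunits of propionyl-CoA carboxylase, were at 71.9 ± 7.15 and 176 ± 10.4 CPM and then at 63.7 ± 3.48 and 144 ± 14.1 CPM (adjusted p = 0.537 and 0.204). Mcee and Mut, which act after it, had log2 fold changes of -0.22 ± 0.13 and 0.01 ± 0.20, and Acads, Echs1, Hibch, Adhfe1 and Aldh6a1 had -0.11, -0.08, -0.37, -0.10 and -0.32.

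The step was set against its neighbors, which share libraries with it and cover dose ratios that are not quite equal. From 1 to 3 μg/kg 9 genes (0.0585%) were called, and from 10 to 30 μg/kg 3249 (21.1%). The difference between the present step and the one before it was tested directly and called for 21 genes (0.137%), 10 upward (0.065%) and 11 downward (0.0716%). This difference rests on 3 doses, with a weight of 2 on the 3 μg/kg libraries, and is less precise than a single step. Its count therefore does not measure how alike the steps were. A library that is high or low at 3 μg/kg enters the 2 steps with opposite sign. Trpv4 changed by 0.78 on the log2 scale from 1 to 3 μg/kg and by 5.04 from 3 to 10 μg/kg (difference 4.26, adjusted p = 0.00530). Cdc20, the activator of the anaphase-promoting complex, changed by -0.20 and then by 3.40 (difference 3.59, adjusted p = 0.00643), being at 0.484 to 0.816 CPM at 3 μg/kg and at 4.66 to 9.50 CPM at 10 μg/kg. Mki67, Rrm2 and Sestd1 completed the 5 named rises, with differences of 2.85, 2.81 and 2.06, and Mcm6 was also called (1.89). Among falls, Serpina4-ps1 changed by 1.05 and then by -7.43 (difference -8.48, adjusted p = 0.000112), Hsd3b5 by -0.32 and then by -5.27 (difference -4.95, adjusted p = 0.00379), and Hao1 by -0.48 and then by -3.02 (difference -2.54, adjusted p = 0.0311). Gm2788 and Cyp4a12b had differences of -3.47 and -3.22. By DESeq2 the count was 55, and it was 37 with title series and order as covariates. It fell to 10 genes without TCDD 3 replicate 2, and was 12 without TCDD 3 replicate 1 and 13 without TCDD 10 replicate 4.

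The step from 10 to 30 μg/kg differed from the present one for 558 genes (3.63%), 144 of them upward (0.937%) and 414 downward (2.69%). The count depended on single libraries: it was 204 to 355 without any 1 of TCDD 10 replicates 1, 2, 4 and 5 and TCDD 30 replicates 2, 3 and 4, and 1581 without TCDD 30 replicate 1. Because both steps share the 10 μg/kg libraries, a library that is high or low at that dose enters them with opposite sign. These libraries had a weight of 2 in the difference, which is likewise less precise than a single step. Of the 444 called genes without overlap and with enough counts to be named, 8 were called in opposite directions at the successive steps, Napsa among them. Atf5, a stress-induced transcription factor, was at 334, 311, 409, 346 and 324 CPM at 3 μg/kg, at 560, 485, 580, 664 and 805 CPM at 10 μg/kg, and at 280 ± 101 CPM at 30 μg/kg. It rose by 0.84 and then fell by 1.15. Col4a4, Map3k13 and 2410006H16Rik followed the same course, rising by 1.80, 0.80 and 0.68 and then falling by 1.09, 0.71 and 0.75. In the opposite direction, Abcg5 was at 70.8 ± 9.10, 40.8 ± 8.16 and 82.0 ± 42.0 CPM (SD, n = 5) at 3, 10 and 30 μg/kg. Gpd2, mitochondrial glycerol-3-phosphate dehydrogenase, was at 17.8 ± 1.38, 11.5 ± 2.17 and 21.2 ± 5.27 CPM, and 5033406O09Rik fell by 1.07 and then rose by 0.74.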

How the data were processed

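Liver RNA from 40 mice was sequenced, and libraries were grouped by the dose label. Values deposited by the authors were raw gene counts from STAR, with 1 file for each mouse, and the unstranded column was used. The submitters' processing notes name STAR 2.7.3a, Trimmomatic 0.39, FastQC 0.11.7 and the builds GRCm39 and mm10 with no role for either, so no coordinates were taken from the counts. Genes that overlap or are antisense to one another are uncertain, as are near-identical copies. A normalized log2 table, likewise deposited, served as an alternative. Symbols for 52083 of 55359 identifiers came from a reference table of mouse genes.

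Counts were fitted in R 4.3.3 with edgeR 4.0.16 (filterByExpr with minimum count 10, TMM scaling, 1 mean per dose over all 40 libraries, 32 residual degrees of freedom). CPM used TMM-scaled library sizes, except for sums over lists and the kidney genes, which used total counts. Each SD describes the spread over mice, and each SE is the model's. Scripts were tested on simulated counts for the step from 3 to 10 over 14882 genes. Of 100 genes changed by 1 on the log2 scale 69 were recovered, and of 100 changed by 2, 98, with 4 false calls. Changed genes were drawn from those with a mean above 1 CPM, so recovery at lower levels was not tested. No simulated library stood apart as some real ones did. Genes named were the 10 largest rises and falls without overlap and with at least 100 mean counts, up to 5 in each direction with the largest difference from the step before or an opposite change at the step after, and up to 4 called members of each list. Further list members were named after their values were seen, and 3 genes chosen by these rules are not reported here. The members, lists and rules were chosen with earlier results of these data known. The kidney genes and the CCAAT and TTTGAA motifs were chosen after the data were seen. Alternatives were DESeq2 1.42.0, limma 3.58.1 on the log2 table, other scalings, filters, covariates and columns, and single libraries left out.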

Additional observations from a re-analysis of the deposited data

Results flagged for a closer look

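In 34 of 286 groups of 5 mice (143 named genes at both doses), 1 mouse lay apart from its mates by Dixon's test at the 95% level. For normally distributed values, chance flags about 1 in 20 groups of unselected genes. The test used CPM without a log, and each flagged mouse was the high one of its group. Saa1 and Saa2 were also picked because a library stood apart in them, and many of the genes share lists. The count is therefore not read against that rate. Values are CPM.

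TCDD 3 replicate 2 was the high mouse in 14. Among acute phase and clotting genes these were Saa1 at 878, Saa2 at 657, Saa4 at 553, Hp at 2510, Apcs at 107, Fga at 8650, Fgb at 7040 and Fgg at 5440. The others were Ccl6 at 12.5, Cyp3a13 at 223, Kmo at 320, Nfil3 at 103, Tiparp at 42.0 and Xbp1 at 490. The same library had the most neutrophil transcripts and unmapped reads of the 10, and the part of either in these values was not tested.

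TCDD 10 replicate 2, with kidney transcripts, was high for Napsa at 47.0 (1.28 to 1.77 in its mates) and Plau at 13.9 (1.44 to 4.12). TCDD 10 replicate 3 was high for Mybl1 at 43.7, Ccnb1 at 5.47 and Il1rn at 11.5. TCDD 10 replicate 5 was high for Hsd3b5 at 10.6, Ccl2 at 10.0 and Prodh2 at 240.0, and TCDD 10 replicate 4 for Slco1a4 at 53.2.

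At 3 μg/kg, replicate 1 was high for Acaa1b at 1260, Col3a1 at 63.3 and Dlk1 at 0.302, and replicate 3 for Asns at 22.0, Psat1 at 5.46 and Serpina4-ps1 at 243. Replicate 4 was high for Abcc4 at 7.80 and Gpx2 at 1.40, and replicate 5 for Gpnmb at 1.92, Map3k13 at 20.8 and Sdf2l1 at 77.4.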

How the results depend on the processing

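No paired analysis was possible because the replicate numbers only name mice in accession order and pair none across doses. The step from 3 to 10 μg/kg had 682 to 1084 calls when single libraries were left out, with 468 to 718 rises and 214 to 367 falls. It had 162 calls in the first numbered series of titles alone (111 rises, 51 falls) and 354 in the second (207 and 147), each with 5 of the 10 libraries. Total-count scaling gave 1061 rises and 239 falls, and no fold threshold 635 falls. Of the 123 called genes named, Egf and Lrp2 apart, none changed sign under any of the 23 alternatives that gave it a value. Calls were kept for 120 with DESeq2, 109 with limma, 102 with total-count scaling and 85 without TCDD 10 replicate 3. The number was 93 without both TCDD 10 replicate 2 and TCDD 3 replicate 2, and 33 and 58 within the first and second series. Leaving out TCDD 10 replicate 2 and TCDD 3 replicate 2 together was chosen after seeing the data.

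The difference from the step before had 10 to 27 calls with single libraries left out (4 to 11 upward, 6 to 16 downward), 55 with DESeq2 (29 and 26), 37 with title series and order as covariates (19 and 18), 16 upward with total counts and 5 upward with the strand-specific column. The difference of the step after had 204 to 1581 (68 to 431 upward, 136 to 1150 downward), 1026 with the covariates (260 and 766) and 299 upward with total counts. The cause of these shifts was not tested.

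Among genes named, the kidney genes Egf and Lrp2 were called and changed sign without TCDD 10 replicate 2, to -0.29 and -0.3. The others that changed sign were uncalled. With total counts the log2 fold change was 0.01 for Acads, 0.03 for Adhfe1, 0.04 for Echs1, 0.09 for Cyp1a1 and 0.13 for Hnf4a. In the first series alone Cyp1a1 was at 0.10 and Mut at -0.01, and in the second Adhfe1 at 0.11 and Alb at -0.15. With the covariates Hnf4a was at 0.02 and Mut at -0.02, and Hnf4a was at 0.01 with a filter at a mean of 50 counts. With single libraries left out the values ran from -0.06 to 0.03 for Hnf4a (0.02 with both libraries out), from -0.12 to 0.14 for Mut, from -0.03 to 0.14 for Alb, from -0.12 to 0.03 for Cyp1a1, from -1.84 to 0.63 for Saa1 and from -2.27 to 0.97 for Saa2. Depth limits genes of a few counts, such as Trem2 at 3 μg/kg, and changes under 2-fold.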
